A study of Rattus norvegicus with 32 samples.

Results

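The CDC-like kinases Clk1, Clk2, Clk3 and Clk4 and the serine/arginine-rich (SR) splicing factors Srsf1, Srsf2, Srsf3, Srsf5, Srsf6 and Srsf7 were followed in RNA-seq counts from adult rat hippocampus. Their rows were taken from the count tables by gene symbol, which gave 1 row for each symbol and 10 rows of 32883 in each table. The 10 genes were chosen by their measured counts across the diet groups of these same libraries, and which comparison led to the choice is not recorded. All fold changes of the 10 genes are therefore given as descriptions, without a test, and their calls stand beside the share of all genes called in the same comparison.

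Sprague-Dawley rats were sampled at 65 days of age, with 4 male and 4 female libraries in each of 4 maternal diet groups. In the iron-sufficient (IS) group the dams ate an iron-sufficient diet throughout. Offspring of dams on an iron-deficient diet from early gestation to the first postnatal week, then on the iron-sufficient diet, formed the formerly iron-deficient group (FID, labelled iron deficient), and the ISch and FIDch groups had the same iron histories with choline added to the maternal diet in gestation. The diets are described in the study's methods for the males, and the females' labels give the same 4 groups. The FID and FIDch groups therefore model an early exposure followed by iron repletion, not a current deficiency. Male RNA was sequenced in batch I after extraction with an RNAqueous kit and female RNA in batch II after extraction with an RNeasy kit, so sex, batch and kit cannot be told apart, and levels were compared only within a sex.

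SR proteins bind exonic sequences in pre-mRNA through RNA recognition motifs and recruit the spliceosome through a domain rich in arginine and serine. CDC-like kinases phosphorylate that domain in the nucleus, which releases SR proteins from nuclear speckles and changes which exons are used. Clk1 and Clk4 are close paralogs whose own transcripts retain introns or skip an exon in a regulated way, and SR protein genes limit their own output through poison exons that send the mRNA to decay. A gene-level count adds up such isoforms, so it does not show how much of a transcript codes for protein.

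The deposited counts summed to between 3515806 and 9517503 per male library, with FIDch replicate 2 the lowest, and to between 18439999 and 26616318 per female library. All 10 genes passed the filter on low counts in every fit, with counts of 163 to 2355 in the males and 277 to 4131 in the females. The 6 excitatory neuron markers of the tissue check, Slc17a7 and Camk2a among them, summed to 4994 to 6218 CPM (counts scaled to library size) in every library. The library labelled female FID replicate 2 went against its label: it held 297 counts of the Y-linked gene Eif2s3y and 188 of Kdm5d, where the other 15 female libraries held 0. In CPM this was 15.4 and 9.75, against 64.9 to 84.7 and 48.7 to 60.7 in the males. For Clk1, Clk4 and the listed genes named in comparisons of female FID with 1 other female group, calls or values without this library are given as well. Choroid plexus markers summed to 390 CPM in male FID replicate 4 and to 17.98 CPM or less in the other 31 libraries, and their part in the results was not tested. In whole tissue, fewer cells of a type and less RNA per cell cannot be told apart. Genes of another strand or family can share reads: in the GRCr8 annotation Clk2 overlaps Mir3541, Clk4 overlaps Msantd5 and Srsf1 overlaps Vezf1, and how shared reads and strands were counted is not given in the sources used here.

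The promoter sequences of Clk1 and Clk4 are shown first because in the females these 2 kinases carried the widest differences between groups and were the closest pair across libraries. In the males neither held. RefSeq's GRCr8 annotation, a later build than the Rnor_6.0 genome of the counts, had a promoter window for each of the 10 genes and a second one for Clk4. Each line below holds the 250 bases before a transcription start, 5′ to 3′ on the gene's own strand, with motif matches in capitals.
Clk1, chr9:67453181-67453430, minus strand: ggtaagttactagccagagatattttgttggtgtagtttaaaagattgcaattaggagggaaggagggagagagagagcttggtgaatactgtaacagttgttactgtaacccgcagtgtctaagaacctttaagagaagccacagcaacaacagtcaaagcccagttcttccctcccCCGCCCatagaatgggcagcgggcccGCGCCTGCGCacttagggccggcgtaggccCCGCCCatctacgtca
Clk4 window 1, chr10:36024208-36024457, plus strand: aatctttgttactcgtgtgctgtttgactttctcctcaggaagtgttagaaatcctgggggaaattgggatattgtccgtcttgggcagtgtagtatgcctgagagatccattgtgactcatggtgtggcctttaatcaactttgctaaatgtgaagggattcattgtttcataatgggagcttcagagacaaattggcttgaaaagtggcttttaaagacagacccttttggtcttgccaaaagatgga
Clk4 window 2, chr10:36025490-36025739, plus strand: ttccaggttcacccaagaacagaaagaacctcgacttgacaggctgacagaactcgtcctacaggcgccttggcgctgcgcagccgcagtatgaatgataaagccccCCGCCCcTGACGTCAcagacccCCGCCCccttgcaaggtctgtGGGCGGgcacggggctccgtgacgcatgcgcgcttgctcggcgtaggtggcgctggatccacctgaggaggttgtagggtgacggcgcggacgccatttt

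The capitals mark exact matches, on either strand, to the SP1/KLF box GGGCGG, the NRF1 motif and the cAMP response element TGACGTCA. Searches for the ETS core CCGGAAG, for the E-box CACGTG and for the heat shock pair GAANNTTC found none in these 3 windows. Overlapping matches were counted separately. The Clk1 window held SP1/KLF boxes that begin 72 and 16 bases before the start and 1 NRF1 motif that begins 46 bases before it. Window 2 of Clk4 held 3 SP1/KLF boxes and a cAMP response element that begins 136 bases before the start, whereas window 1 held none of the motifs and had a GC content of 42%. Among all 33469 windows of this length in the table, 30.5% held the SP1/KLF box, 3.75% the NRF1 motif and 1.59% the cAMP response element. The ETS core was in 7.27% of them, the E-box in 5.59% and the heat shock pair in 7.23%. Of the 11 windows of the 10 genes, 7 held the SP1/KLF box, 3 the NRF1 motif, 2 the ETS core, and 1 each the cAMP response element, the E-box (Srsf3) and the heat shock pair (Srsf5). Apart from window 1 of Clk4, their GC content was 52% to 69.6%, against a median of 51.2% over all windows. The SP1/KLF box holds only G and C, and the part of GC content in its count was not tested. These matches describe letters only, and no binding was measured here.

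Clk1 (ENSRNOG00000025768), the best studied kinase of the family, was lower in all 3 treated female groups than in the female IS group. Its normalized counts (counts scaled by TMM, edgeR's trimmed mean method, to the mean library of that sex) in the 4 IS libraries were 1679.6, 1679.5, 1771 and 1848. The FID libraries held 1279.7, 1293, 1134 and 1076, all below the lowest IS library. The log2 fold change of FID against IS was -0.55 ± 0.06 (SE), a change of -31.5% in level. Without the library that carried Y-linked counts it was -0.58 ± 0.06, and the remaining 3 FID libraries were all below the IS libraries. Thalamus markers set female FID apart as well. They summed to 47.36 to 54.04 CPM in FID and 34.47 to 46.72 in IS. In ISch they summed to 35.05 to 47.35 CPM and in FIDch to 34.53 to 44.96. Their part in the Clk1 and Clk4 differences was not tested.

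The choline groups of the females were less uniform. In ISch, Clk1 stood at 1153, 1505, 1721 and 1183 normalized counts, and in FIDch at 1181, 941, 1371 and 1729. In each of these groups 3 libraries were below every IS library and the highest one was inside the IS range. The log2 fold change against IS was -0.33 ± 0.11 for ISch and -0.42 ± 0.15 for FIDch. The coefficient of variation of Clk1 was 4.67% in IS and 25.5% in FIDch, the latter the highest of any of the 10 genes in any female group. Without FIDch replicate 4, the highest library, the FIDch difference became -0.59, and without replicate 2, the lowest, it became -0.29. FIDch replicate 4 also had the highest blood marker sum, 317 CPM against 97.5 to 128 in the other FIDch libraries, the lowest excitatory neuron sum of the females (5330 CPM) and the highest mitochondrial share of counts (8.36%). Microglia markers summed to 211 to 221 CPM in IS, 181 to 208 in ISch, 191 to 199 in FIDch and 206 to 223 in FID, so both choline groups lay below IS. The part of these values in the Clk1 differences was not tested.

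In the male libraries Clk1 did not separate the groups. IS held 1071, 899, 1126 and 991 normalized counts, and FID held 1113, 842, 933 and 1109. The ISch values of 945, 1082, 1118 and 1195 and the FIDch values of 1066, 1415, 883 and 1151 overlapped both. The log2 fold changes against IS were -0.04 ± 0.10 for FID, 0.13 ± 0.12 for FIDch and 0.09 ± 0.08 for ISch. The highest male value, 1415, came from FIDch replicate 2, the library with the fewest counts, and without it the FIDch difference was 0.01.

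**Figure D1:**
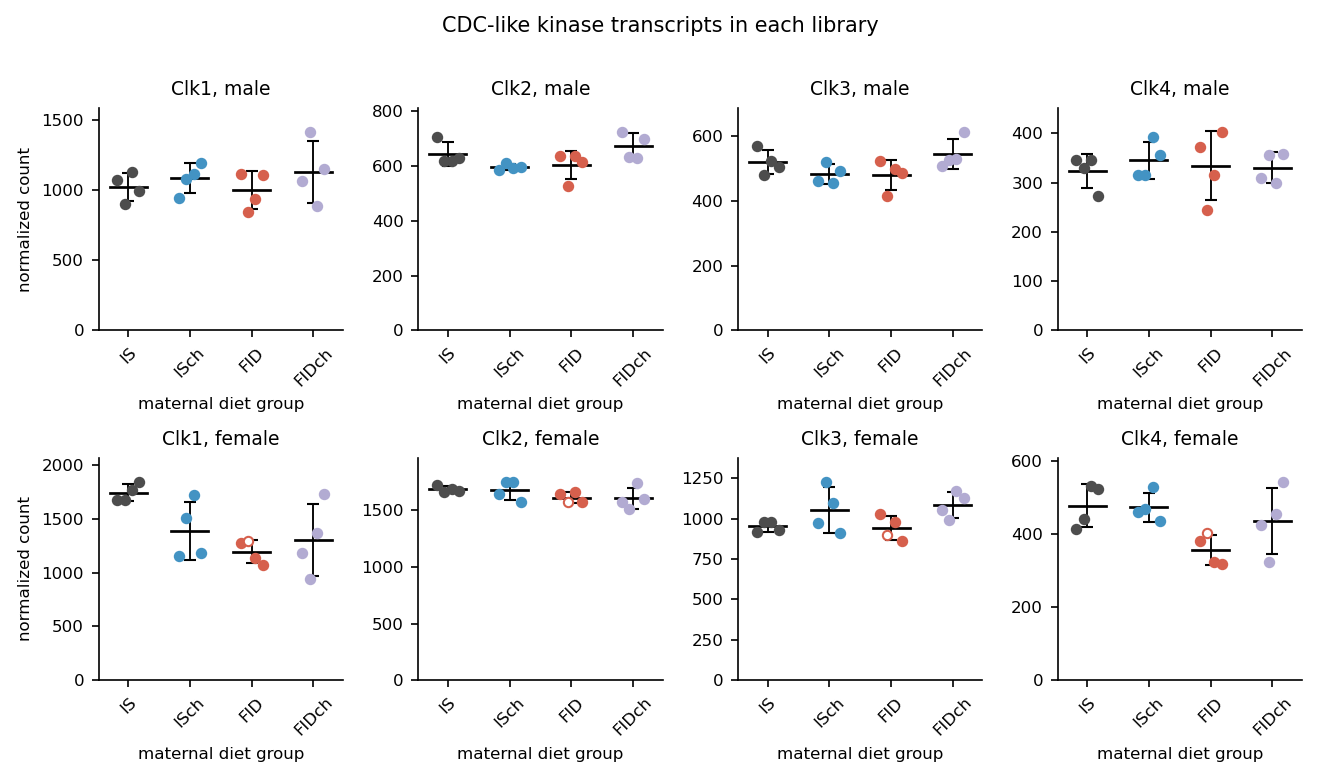
Normalized counts (vertical axes, starting at 0) of Clk1, Clk2, Clk3 and Clk4 in each library of the 4 maternal diet groups, males above and females below. Points are libraries, lines and bars are the mean and SD of 4 libraries, and the open circle is the female FID library with Y-linked counts. All 4 female FID libraries of Clk1, at 1076 to 1293, lie below the 4 IS libraries, at 1679.5 to 1848.

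Clk4 (ENSRNOG00000003714), the paralog of Clk1, was also lower in female FID. IS held 415, 441, 531 and 522 normalized counts and FID held 379.6, 401, 323 and 318, so that the highest FID library, the one with Y-linked counts, lay just under the lowest IS library. The log2 fold change was -0.43 ± 0.10, and -0.48 ± 0.11 without that library. The ISch libraries, at 459, 468, 529 and 435, lay inside the IS range, with a log2 fold change of -0.02 ± 0.09. FIDch held 424, 324, 454 and 543, from inside the FID range to above the IS range, with a log2 fold change of -0.13 ± 0.14 against IS and 0.29 ± 0.14 against FID. Male Clk4 ranged from 245 to 403 normalized counts, both extremes being FID libraries, and its log2 fold changes against IS were 0.03 for FID, 0.02 for FIDch and 0.09 for ISch.

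Clk2 (ENSRNOG00000020500) and Clk3 (ENSRNOG00000030126), the other kinases of the family, followed another pattern. Female Clk2 was the steadiest of the 4 kinases, with group means of 1608 to 1685 normalized counts and log2 fold changes against IS of -0.06 for FID, -0.07 for FIDch and -0.01 for ISch. Female Clk3 was at 919.7, 980.3, 978 and 929 in IS and at 1053, 989, 1171 and 1129.9 in FIDch, where all 4 libraries were above IS. Its log2 fold change in FIDch was 0.19 ± 0.06, just under the size limit of 0.2 used for calls, while FID, at -0.01 ± 0.06, stayed within 1 standard error of 0. Against FID the FIDch difference of Clk3 was 0.20 ± 0.07, a value that rounds to the limit but lies under it.

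In the males Clk2 and Clk3 were both highest in FIDch. Clk2 stood at 707, 617, 617 and 628 normalized counts in IS and at 586, 611, 592 and 598 in ISch, which did not overlap, and at 725, 633, 628 and 699 in FIDch, all above ISch. The group means of Clk3 were 544 normalized counts for FIDch, 519.9 for IS, 483 for ISch and 481 for FID. The male interaction, (FIDch − FID) − (ISch − IS), which sets the choline effect after early iron deficiency against that without it, was 0.26 ± 0.10 on the log2 scale for Clk2 and 0.29 ± 0.11 for Clk3. The choline difference of Clk2 had opposite signs in the 2 iron histories, though neither value was called. Clk2 was 0.15 ± 0.08 higher in FIDch than in FID and 0.11 ± 0.06 lower in ISch than in IS. Each value leaned on 1 library: the first was 0.09 without male FID replicate 2, and the second -0.06 without male IS replicate 1.

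Counted by the study's criterion (log2 fold change beyond 0.2 in either direction, with p under 0.05 before adjustment), 2 of the 10 genes, Clk1 and Clk4, were called in female FID against IS, both lower, where 6.47% of all 14632 genes tested were called and 3.4% were called lower. The same 2 were the members whose FID and IS libraries did not overlap, beside 6.49% of all genes. In FIDch against IS 1 member, Clk1, was called, beside 8.98% of all genes, and in ISch against IS again Clk1, beside 10.3%. No member was called in FIDch against FID, where 12.7% of genes were, or in FIDch against ISch, where 4.57% were. In the female interaction Clk1 was called at 0.45 ± 0.21, beside 7.33% of genes, but 11 of its 21 alternatives did not call it. At a Benjamini-Hochberg adjusted p under 0.05 in edgeR, 1 member, Clk1 in female FID against IS, was counted beside 0.191% of all genes. The 10 genes were chosen from these same counts, so that count describes Clk1 and does not test it. When the 4 female groups shared 1 fit that count was 0. Members that did not overlap between groups without being called were Clk3 in FIDch, beside 7.8% of all genes, and Srsf1 in ISch, beside 10.1%.

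No male member was called in FID against IS (4.62% of all genes called), FIDch against IS (6.12%), ISch against IS (8.06%), FIDch against FID (13%) or FIDch against ISch (8.12%). In the male interaction 3 members were called, Clk2, Clk3 and Srsf2 (0.20 ± 0.09), all higher, beside 14.4% of all genes called and 6.84% called higher. Srsf2 lay on the size limit and was called in 11 of 22 alternatives, its value being 0.15 without male FID replicate 2, while Clk2 was called in 22 and Clk3 in 21. In the male comparisons 1 member did not overlap in FIDch against IS (Srsf1, lower, beside 5.36% of genes), 1 in ISch against IS (Clk2, lower, beside 6.14%) and 1 in FIDch against ISch (Clk2, higher, beside 7.69%).

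The effect of each diet in females minus that in males was taken for all 10 genes in a fit of 16 libraries. For Clk1 the difference was -0.52 ± 0.13 for FID, -0.54 ± 0.21 for FIDch and -0.42 ± 0.15 for ISch. Clk4 differed in this way for FID only among its 3 values at the criterion, at -0.47 ± 0.19. Without female FID replicate 2 the FID values were -0.56 for Clk1 and -0.54 for Clk4. Clk3 differed by 0.24 ± 0.11 for ISch, which 14 of 22 alternatives did not call. The members called numbered 2 for FID, beside 7.64% of genes, 1 for FIDch, beside 12.9%, and 2 for ISch, beside 14.2%. None of them had an edgeR adjusted p under 0.05 (2, 2 and 3 members had an unadjusted p under 0.05), where 0.0396%, 0.362% and 1.28% of all genes did. Sex and batch differ together in these contrasts and cannot be told apart.

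**Figure D2:**
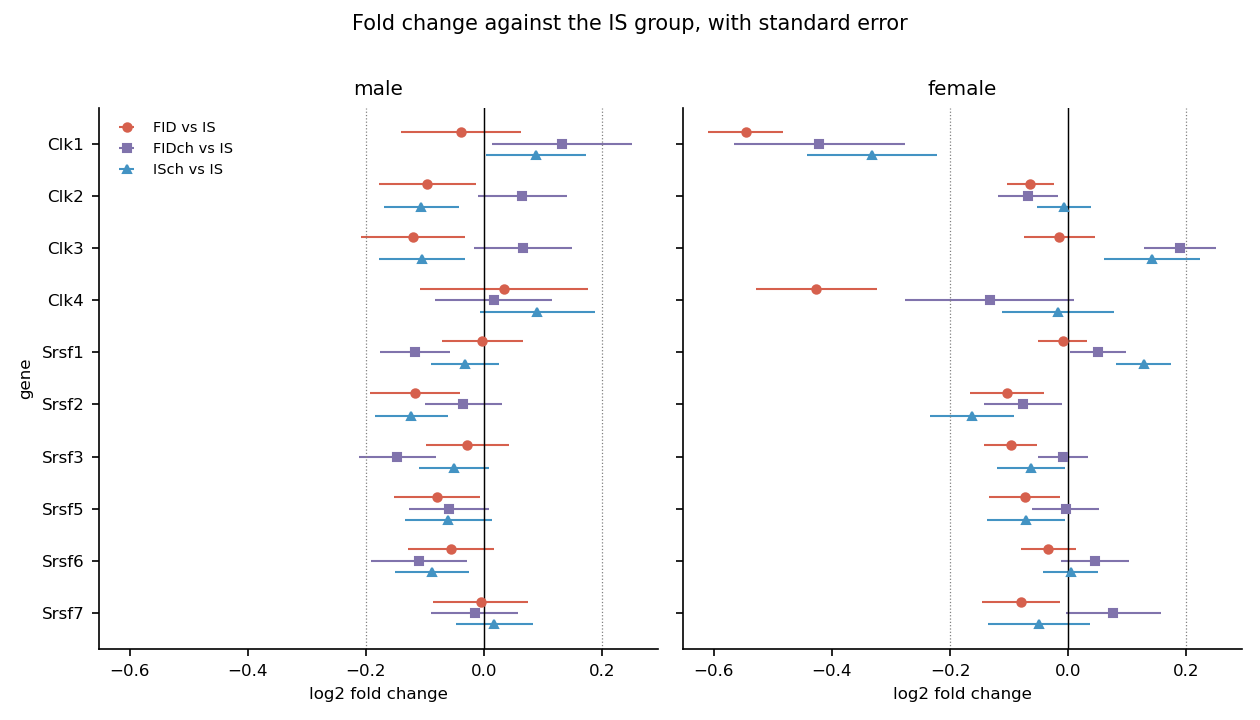
Log2 fold change against IS (horizontal axes) with its standard error for the 10 genes, males on the left and females on the right, for FID (circles), FIDch (squares) and ISch (triangles). Dotted lines mark the size limit of 0.2. Female Clk1 lies left of the limit in all 3 comparisons, at -0.55, -0.42 and -0.33, and female Clk4 in FID, at -0.43.

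Ratios of raw counts within a library do not depend on how libraries were scaled. The Clk1 to Clk2 ratio was 0.974 to 1.11 in the 4 female IS libraries and 0.683 to 0.823 in the FID libraries, again without overlap. It was 0.703 to 0.981 in ISch, which overlapped IS by its highest library, and 0.621 to 1.08 in FIDch. The Clk4 to Clk2 ratio was 0.283 ± 0.036 (SD, n = 4) in IS and 0.221 ± 0.028 in FID, and these ranges overlapped. The Clk1 to Clk4 ratio was 3.34 to 4.05 in IS, 3.22 to 3.52 in FID, 2.51 to 3.25 in ISch and 2.79 to 3.18 in FIDch, so that both choline groups lay below IS. Male Clk1 to Clk2 ratios were 1.46 to 1.82 in IS, 1.46 to 1.8 in FID, 1.61 to 2 in ISch and 1.41 to 2.23 in FIDch. Because the genes differ in length, a ratio says nothing about which kinase is more abundant.

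**Figure D3:**
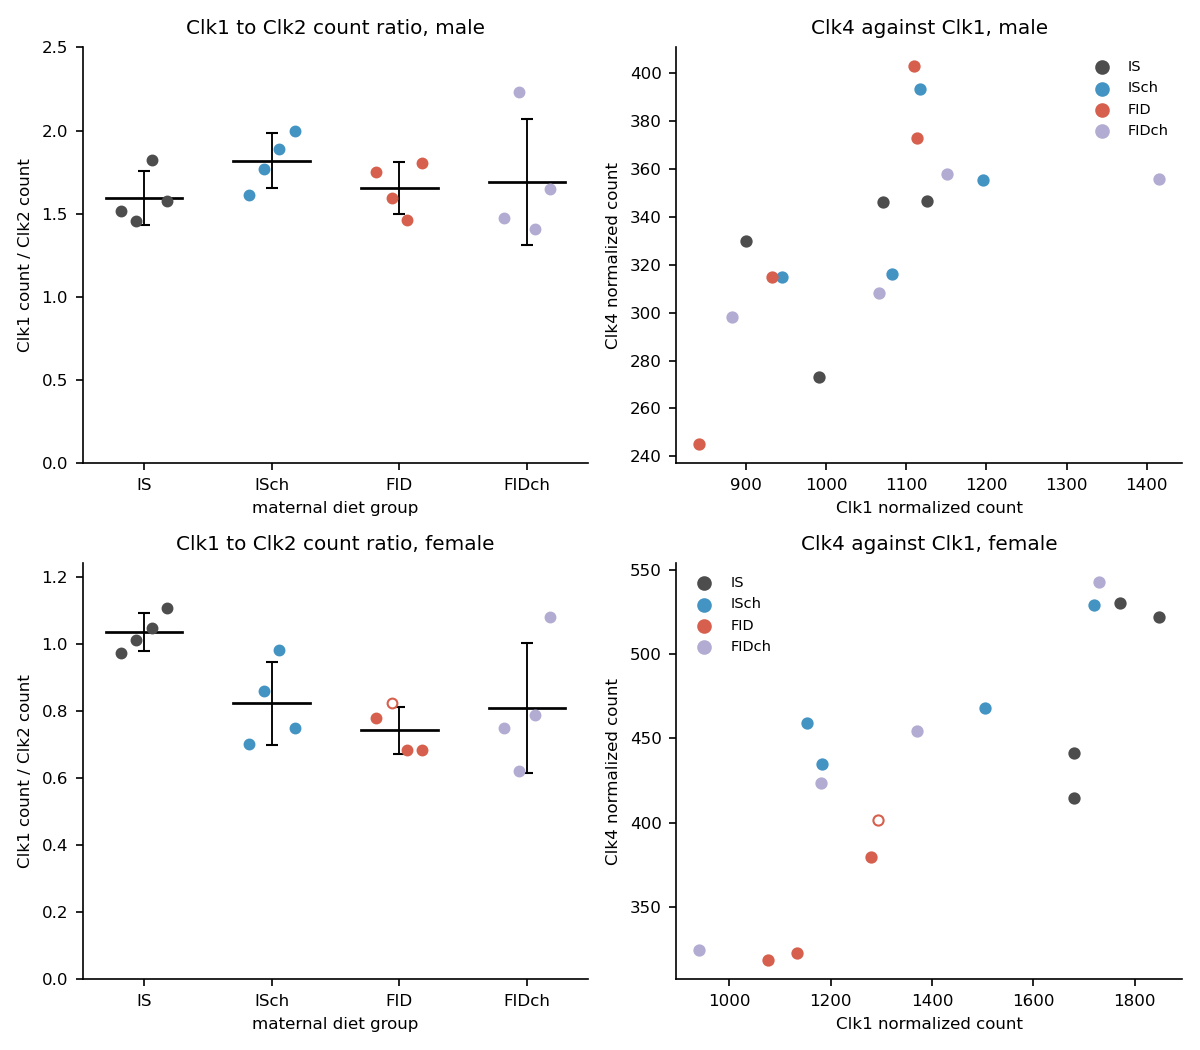
Left, Clk1 count divided by Clk2 count in each library by diet group, with mean and SD of 4 libraries; right, normalized counts of Clk4 against Clk1 for the same libraries, with axes that do not start at 0. Males are above, females below, and the open circle is the female FID library with Y-linked counts. The female FID ratios, 0.683 to 0.823, lie under the IS ratios, 0.974 to 1.11.

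The SR protein transcripts differed little between groups. Over the 6 genes the log2 fold changes of female FID against IS ran from -0.10 (Srsf2) to -0.01 (Srsf1), with standard errors of 0.04 to 0.07, and those of male FID against IS from -0.12 (Srsf2) to -0.00 (Srsf1), with standard errors of 0.07 to 0.08. None of the 6 was called in any of the 10 comparisons between pairs of groups. A difference under the size limit of 0.2 would not have been called in any of them.

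Srsf1 (ENSRNOG00000050323), a splicing activator that also acts in RNA export and decay, was the SR gene with non-overlapping groups in both sexes. Female libraries held 2989, 3118, 2947 and 3030.3 normalized counts in IS and 3123, 3518, 3399 and 3195 in ISch, a log2 fold change of 0.13 ± 0.05. Male IS libraries held 1674, 1589.6, 1796 and 1641 and FIDch libraries 1488, 1588, 1554 and 1553, a log2 fold change of -0.12 ± 0.06. The 2 differences had opposite signs and belong to different diet groups.

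Srsf2 (ENSRNOG00000000248), which binds exonic enhancers and resides in nuclear speckles, had its lowest female mean in ISch, at 1914 ± 197 (SD, n = 4) against 2137 ± 126 in IS. The log2 fold change was -0.16 ± 0.07, and the ISch libraries, 1732 to 2181, overlapped those of IS, 1970.1 to 2274. Male Srsf2 was also lowest in ISch, at 1206 ± 44.7 against 1314 ± 95 in IS.

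Srsf3 (ENSRNOG00000000520), the smallest SR protein, Srsf5 and Srsf6 (both known for regulated retention or poison-exon splicing of their own transcripts) and Srsf7, which shares with Srsf3 a role in mRNA export, had group means within 5.23% to 11.6% of each other in the females and 2.48% to 10.7% in the males. The lowest female mean of Srsf3, Srsf5, Srsf6 and Srsf7 was that of FID in each case, at 2439, 3114, 1666 and 807 normalized counts, against 2609, 3277, 1706 and 853 in IS. These groups overlapped: for Srsf5 the FID libraries ran from 2847 to 3374 and the IS libraries from 3184 to 3394. In the males the lowest mean of Srsf3, Srsf6 and Srsf7 was that of FIDch.

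**Figure D4:**
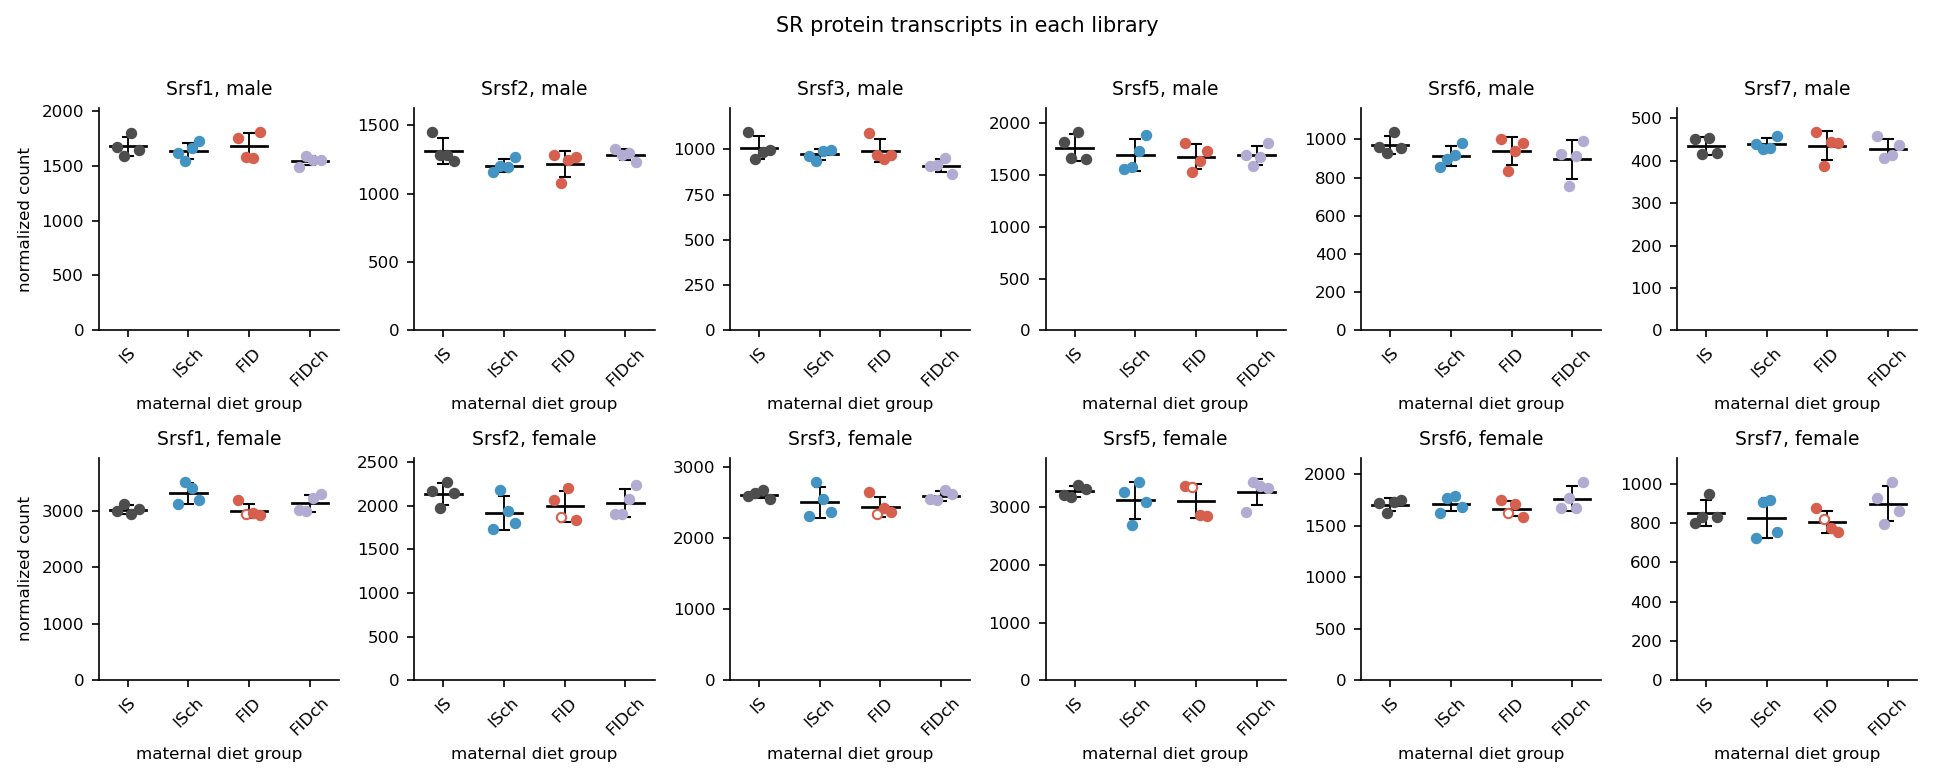
Normalized counts (vertical axes, starting at 0) of the 6 SR protein genes in each library of the 4 maternal diet groups, males above and females below, with the mean and SD of 4 libraries. The open circle is the female FID library with Y-linked counts. The groups overlap in nearly every panel, female Srsf1 in ISch, at 3123 to 3518, against IS, at 2947 to 3118, being one of the 2 exceptions in comparisons with IS.

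How the 10 genes varied together was described by Pearson's r of log2 CPM over the 16 libraries of a sex, which share their diet groups, depth differences and scaling, so no p is given. Of the 45 pairs, 41 had a positive r in the females and 39 in the males, with medians of 0.48 and 0.39. Clk1 and Clk4 were the closest pair of all in the females, at r = 0.81, and reached 0.68 in the males. With the group means removed these values were 0.87 and 0.71, so the pair also varied together inside groups. It was then not the closest: Clk3 and Srsf3 had 0.91 in the females, and Srsf5 and Srsf6 had 0.82 in the males. Over all 45 pairs the median was then 0.57 in the females and 0.49 in the males. Clk2 and Clk3 had r = 0.81 in the males and 0.49 in the females, and 0.82 in the females with the group means removed. Among SR genes, Srsf5 and Srsf6 had r = 0.80 in the males and 0.28 in the females, and Srsf3 and Srsf7 had r = 0.77 in the females and 0.35 in the males.

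The mean profile of the 10 genes, taken as the average of their standardized log2 CPM, was lowest in male FID replicate 2 (-1.64) and female FID replicate 4 (-1.31) and highest in male IS replicate 1 (1.04) and female FIDch replicate 4 (0.92). The female choline groups were split: ISch held -0.65, 0.85, 0.86 and -0.65 in replicate order and FIDch -0.31, -0.56, 0.73 and 0.92, and Clk1, which is part of the profile, had its 2 highest values of each group in the same libraries. Outside the 10 genes, those most like this profile in the males were Arglu1 (r = 0.92), Arvcf (0.88), Cstf2 (0.88), Chfr (0.87) and Rps6kb2 (0.86) among 14314 genes. In the females they were P3h3 (0.91), St5 (0.89), Gemin2 (0.89), Cc2d2a (0.88) and Rbm5 (0.87) among 14975 genes. Such values are the highest among all genes ranked and are high by selection, and the 2 lists shared no gene.

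Other genes of the splicing machinery were taken from lists that hold none of the 10 genes, drawn up with earlier results of these libraries known, and were tested in the same edgeR fits. Of 7 other SR proteins (Srsf4, Srsf9, Srsf10, Srsf11, Srsf12, Tra2a and Tra2b), 0 were called in female FID against IS and 0 in male FID against IS, beside 6.47% and 4.62% of all genes. Srsf9, which represses exon inclusion at some sites, was called higher in FIDch than in FID in both sexes, with log2 fold changes of 0.41 ± 0.14 in the males (edgeR adjusted p = 0.158) and 0.25 ± 0.10 in the females (0.226). In FIDch against FID 13% of all genes were called in the males and 12.7% in the females. Its normalized counts were 101.4 to 127.8 in male FIDch against 63.5 to 93.6 in male FID, without overlap, and 185 to 232 against 154 to 186 in the females, which overlapped. The female call was lost without FID replicate 2, the library with Y-linked counts. Srsf9 was also called in female ISch against IS, at 0.22 ± 0.10 (adjusted p = 0.286), beside 10.3% of all genes. Of its 14 alternatives 9 did not call it. None of 4 other kinases that act on splicing factors, Srpk1, Srpk2, Srpk3 and Prpf4b, was called at the criterion in any comparison in edgeR.

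Among 18 RS-domain coactivators and SR-related proteins 0 were higher and 1 was lower at the criterion in female FID against IS, beside 3.08% and 3.4% of all genes. The lower gene was Rsrp1, at -0.20 ± 0.06 (adjusted p = 0.206), which was called in 6 of 14 alternatives and not without female FID replicate 2. In males Acin1 (0.23 ± 0.07, adjusted p = 0.139) and Snrnp70 of the U1 particle (0.37 ± 0.13, adjusted p = 0.169) were higher in FIDch than in FID at the criterion, and Scaf11 (0.22 ± 0.09, adjusted p = 0.451) in ISch than in IS. Of all male genes, 13% were called in FIDch against FID and 8.06% in ISch against IS. The 21 hnRNP genes tested, which often oppose SR proteins, gave 1 call in each direction of Hnrnpr in the males, 0.21 in FID against IS and -0.28 in FIDch against FID, 1 of Hnrnph3 in male FIDch against ISch (0.46) and 1 of Hnrnpc in female ISch against IS (1.04 ± 0.45). Their adjusted p-values were between 0.211 and 0.786. The shares of all genes called in these comparisons, in the order given, were 4.62%, 13%, 8.12% and 10.3%.

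Prpf3, a component of the U4/U6 particle, was higher in FIDch than in FID in both sexes. Male values were 223 to 261 normalized counts in FIDch and 184 to 196 in FID, a log2 fold change of 0.35 ± 0.08 (edgeR adjusted p = 0.0494). Female values were 498 to 565 and 399 to 463, a log2 fold change of 0.34 ± 0.07 (adjusted p = 0.0335). The groups did not overlap in either sex, beside 10.7% of all genes in the males and 11.9% in the females. At the criterion 13% and 12.7% of all genes were called. Both calls at the criterion held in all 14 alternatives, but the adjusted p stayed under 0.05 in only 4 of 14 for the males and 8 of 14 for the females, and was 0.104 without female FID replicate 2.

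Snrpc, a protein of the U1 particle that recognizes the start of introns, differed most among the 22 core spliceosome genes. Female IS libraries held 214 to 264 normalized counts and FID libraries 208 to 234, whereas ISch held 325 to 403 and FIDch 361 to 414. Snrpc rose by a log2 fold change of 0.61 ± 0.10 in ISch against IS (edgeR adjusted p = 0.0141), 0.69 ± 0.09 in FIDch against IS (0.0065) and 0.79 ± 0.08 in FIDch against FID (0.00074, and 0.00445 without female FID replicate 2). In a fit blocked on replicate number these adjusted p-values became 0.0599, 0.0505 and 0.00654. The effect of ISch differed between females and males by 1.01 (edgeR adjusted p = 0.026). Over its 22 alternatives the difference was 0.68 to 1.15, and the adjusted p stayed under 0.05 in 13 and reached 0.156. Male Snrpc was at 54.4 to 61.7 in IS and 30.8 to 55.4 in ISch. Male core spliceosome genes at the criterion were Prpf3 in FID against IS (-0.23), Sf3a2 in FIDch against IS (0.22), FID (0.33) and ISch (0.22), Snrpd2 in ISch against IS (0.21) and in FIDch against FID (0.34), and Snrpe in FIDch against ISch (-0.68), with adjusted p-values of 0.0974 to 0.786. The shares of all male genes called against IS were 4.62% in FID, 6.12% in FIDch and 8.06% in ISch. They were 13% in FIDch against FID and 8.12% in FIDch against ISch.

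Of 18 neuronal splicing regulators, 0 were called in female FID against IS and 4 were called lower in female FIDch than in FID, beside 7.07% of all genes: Nova2, Srrm4, Elavl4 and Celf4. All 4 were also called without female FID replicate 2. Nova2, which controls exon choice in neurons, was at 427 to 496 normalized counts in FIDch and 514 to 638 in FID, a log2 fold change of -0.38 ± 0.08 (adjusted p = 0.0364, and 0.0388 without female FID replicate 2). That adjusted p stayed under 0.05 in 8 of 14 alternatives and reached 0.119 without female FID replicate 4. Srrm4, the microexon regulator, differed by -0.34, Elavl4 by -0.24 and Celf4 by -0.22, with adjusted p-values of 0.111 to 0.156, and 0.241 to 0.344 without female FID replicate 2. In the males the direction for Nova2 was the opposite, with 0.32 ± 0.09 in FIDch against FID (adjusted p = 0.0903) and 0.32 ± 0.13 against IS (0.587); the difference between the sexes in FIDch against FID was not tested. Nova2 was also lower in female FIDch than in ISch, by -0.31 (adjusted p = 0.556). Khdrbs2 was higher in female ISch (0.46, adjusted p = 0.0626) and FIDch (0.33, 0.347) than in IS, and Elavl2 lower in ISch (-0.25, 0.0668). Male calls were Mbnl1 in FID (0.30) and ISch (0.28) and Elavl4 in ISch (0.22) against IS, Elavl2 in FIDch against FID (-0.22) and Nova1 in FIDch against ISch (-0.23), with adjusted p-values of 0.244 to 0.786. The shares of all male genes called against IS were 4.62% in FID, 6.12% in FIDch and 8.06% in ISch. They were 13% in FIDch against FID and 8.12% in FIDch against ISch. Female shares were 10.3% in ISch and 8.98% in FIDch against IS, and 4.57% in FIDch against ISch.

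In the interaction, where the effect of choline is compared between the 2 iron histories, no listed splicing gene had an edgeR adjusted p under 0.05 in either sex. The listed genes at the criterion with the largest values were, in the males, Mbnl1 (-0.39), Sf3a2 (0.34), Prpf3 (0.34), Nova1 (-0.33), Elavl4 (-0.33), Scaf11 (-0.31), Acin1 (0.23) and Srsf4 (0.23), and in the females Nova2 (-0.50), Prpf3 (0.33), Sf3a3 (0.25), Rbfox3 (-0.23) and Elavl4 (-0.23). Their adjusted p-values ran from 0.218 to 0.520. Prpf3 and Elavl4 were the listed splicing genes at the criterion in both sexes, each with the same sign. At the criterion 14.4% of all genes were called in the male interaction and 7.33% in the female one. Whether listed genes shared more calls between the sexes than all genes do was not tested.

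**Figure D5:**
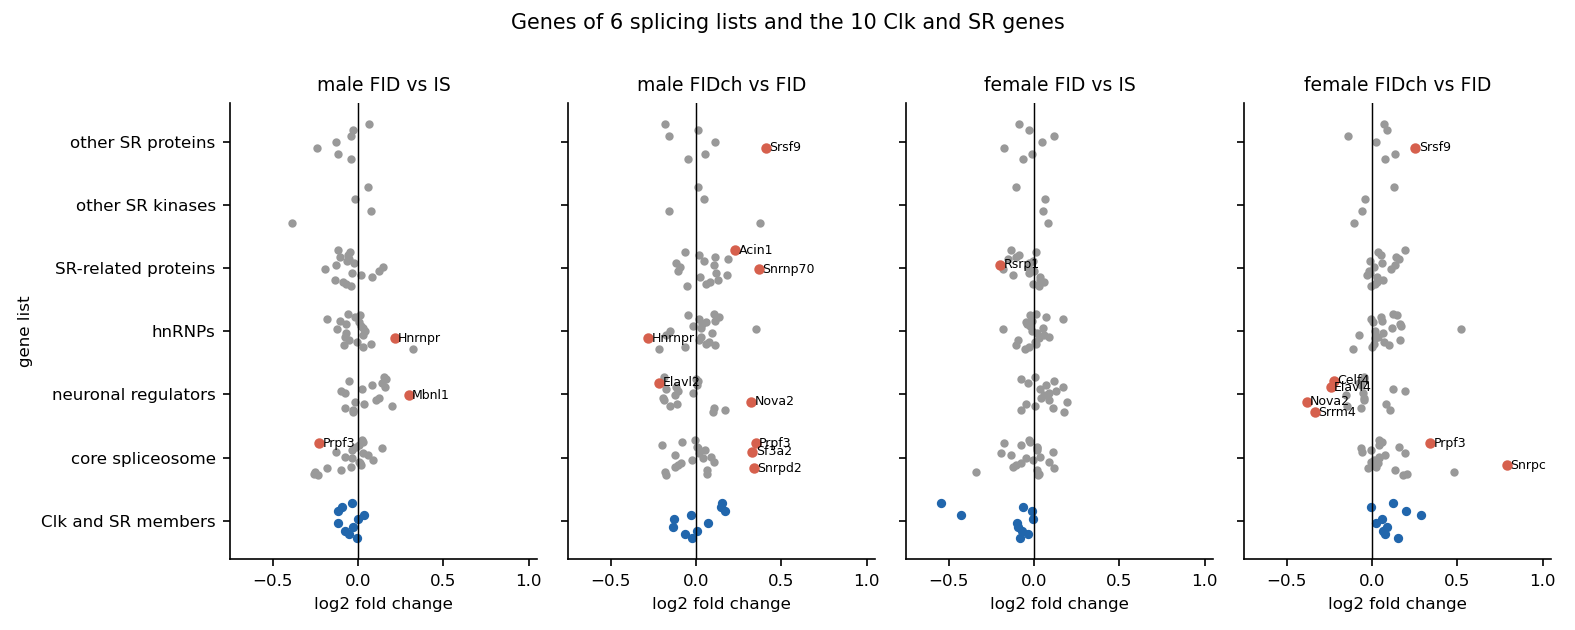
Log2 fold changes (horizontal axes) of the genes of 6 splicing lists and of the 10 Clk and SR genes (bottom, blue) in 4 comparisons. Red points with names met the study's criterion, which was not marked for the blue points. In female FID against IS the 2 lowest blue points are Clk1 (-0.55) and Clk4 (-0.43), and Rsrp1 (-0.20) is the single red point.

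The median log2 fold change was between -0.03 and 0.06 for each of these 6 lists in female FID against IS, beside 0.0003 over all genes tested and -0.08 over the 10 members. Lists of temperature, immediate early and clock genes, which report on the state of the tissue when it was taken, were counted as well. In female FID against IS the cold-induced gene Rbm3 was called lower among 13 temperature and heat shock genes, beside 3.4% of all genes (-0.36 ± 0.13, adjusted p = 0.315, and -0.41 without female FID replicate 2). Of 13 immediate early genes 5 were called higher, beside 3.08% of all genes, led by Npas4 (1.01, adjusted p = 0.155), Ier2 (0.41, 0.255) and Egr4 (0.37, 0.393), and 1 lower, beside 3.4%, Nr4a1 (-0.27, 0.17, chosen after its value was seen). All 6 were also called without female FID replicate 2. Of 14 clock genes 2 were called lower, beside 3.4% of all genes, Per1 (-0.24, adjusted p = 0.266) and Cry1 (-0.20, 0.439). Cry1 was called in 3 of 14 alternatives and not without female FID replicate 2, and Per1 in 13, that one included. In female ISch against IS, Rbm3 was lower (-0.46, adjusted p = 0.0535), 7 immediate early genes were called higher, beside 5.14% of all genes, and Per1 (0.44, adjusted p = 0.024) and Per3 (0.30, 0.026) rose. Among those 7, Egr2 (1.33), Egr1 (0.46) and Nr4a1 (0.44) had adjusted p-values of 0.000324, 0.0114 and 0.0405. The adjusted p stayed under 0.05 in 14 of 14 alternatives for Egr2 and Egr1, but in 5 for Nr4a1 (up to 0.224), 8 for Per1 (up to 0.0856) and 6 for Per3 (up to 0.124). In female FIDch against FID, Ier2 fell by 0.56 (adjusted p = 0.0382), which was 0.126 without female FID replicate 2 and under 0.05 in 7 of 14 alternatives. In the males the chaperone Hsp90aa1 differed from IS by 0.68 in FID (edgeR adjusted p = 0.786) and -0.67 in FIDch (0.2615). Neither adjusted p was under 0.05 in any of 14 alternatives. In FIDch against FID it fell by 1.35 (adjusted p = 0.00736, under 0.05 in 14 of 14 alternatives). Per1 rose there by 0.43 (0.0347, under 0.05 in 6 of 14 alternatives and up to 0.137). The part of these genes in the differences of Clk1 and Clk4 was not tested.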

How the data were processed

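Hippocampal RNA of 16 male and 16 female rats was sequenced with a TruSeq RNA library kit. The authors deposited 1 table of raw read counts per gene for each sex, made with HISAT2 and featureCounts on the Rnor 6.0 genome. The annotation version and strand setting are not given in the sources used here. In each comparison, edgeR 4.0.16 (R 4.3.3) was fitted to the 2 groups alone, with TMM scaling, its default filter on low counts and the quasi-likelihood test; interactions and differences between sexes used all 16 libraries concerned. Calls followed the study's limits (log2 fold change beyond 0.2 in either direction, with p under 0.05 before adjustment) and, separately, Benjamini-Hochberg adjusted p-values over all genes. Log2 CPM used a prior count of 2.

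The 10 genes and all lists were chosen with earlier results of these data known. Named from each list were genes with an adjusted p under 0.05 and up to 3 with the largest change at the criterion, and the 5 genes most like the mean profile per sex; marker lists appear as sums. Male tables are shallower: 3 counts, the upper 95% limit for a count of 0, stand for 0.312 to 0.848 CPM in the males and 0.113 to 0.163 in the females, covering counting error only. Samples are separate rats by their labels, but the sources do not tie females to litters. Replicate numbers were not taken to pair the samples. Over 40 same-number pairs of libraries, correlations of deviations ran from -0.151 to 0.215, with 4 above 0.1. Pairs with different numbers were not compared, so this range cannot show that pairing is absent. No 2 replicates agreed within sampling noise (chi-square per gene of 2.02 to 25.2 over 48 pairs). Alternatives were DESeq2 1.42.0, other scalings, no filter on low counts, 1 fit for all groups, a replicate block and leaving out each library. Scripts were tested on simulated data.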

Additional observations from a re-analysis of the deposited data

Results flagged for a closer look

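Of the 80 groups of 4 libraries checked for the 10 genes, 2 held a library far from the other 3, where chance gives about 1 in 20. Clk2 in male IS was at 707 normalized counts in replicate 1 and at 617 to 628 in the other 3, so that the gap took 0.876 of the whole range. Srsf1 in female FID was at 3190.2 in replicate 1 and at 2920.1 to 2962 in the others, a share of 0.845.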

How the results depend on the processing

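No result changed its sign while called. Clk1 was called in female FID against IS in 14 of 14 alternatives, with log2 fold changes of -0.58 to -0.49, and so was Clk4, at -0.48 to -0.37. Both genes were chosen from these same counts, so their calls in that comparison are a description. With edgeR, 1 gene of the 10 had an adjusted p under 0.05 there, against 2 with DESeq2 and 0 when the 4 female groups shared a fit. In female FIDch against FID, 0 of the 10 were called, against 1 with DESeq2, with RLE size factors, by library size alone or without the filter on low counts, and 2 with all groups in 1 fit. By library size alone 2 were called in female FIDch against IS in place of 1. Without the filter, male FID against IS gave 1023 genes in place of 640, and female minus male ISch gave 1 of the 10 in place of 2. Leaving out the 3 male libraries whose file columns are named in another form, an alternative chosen after seeing the data, gave 679 genes in place of 1125 in male ISch against IS, 1 of the 10 in male FIDch against ISch in place of 0, and 1 in female minus male ISch. In the unchanged fits the share of all genes called was 12.7% in female FIDch against FID and 8.98% in female FIDch against IS. It was 8.12% in male FIDch against ISch and 14.2% in female minus male ISch.

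The labels do not say that the replicate numbers pair the samples. With the replicate number as a block, 1 of the 10 was called in female FIDch against FID, 0 in the female interaction in place of 1, and 1 in female minus male ISch in place of 2.

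Leaving out 1 library at a time, the members called ranged from 0 to 1 in male FIDch against IS (1 without FIDch replicate 3), FIDch against FID and FIDch against ISch, from 1 to 2 in female FIDch and ISch against IS, from 0 to 3 in female FIDch against FID (3 without FIDch replicate 2), from 0 to 3 in the female interaction (3 without ISch replicate 2), from 2 to 3 in the male interaction and from 1 to 2 in female minus male FID and ISch. Adjusted p-values under 0.05 were reached by 0 to 1 member in female FIDch (1 without FIDch replicate 4) and ISch (1 without ISch replicate 3) against IS. Over all genes the numbers that reached them were 28 to 319 in FIDch and 103 to 796 in ISch. All genes called ranged from 392 (without IS replicate 1) to 1236 (without IS replicate 3) in male FID, 681 to 1267 in male FIDch and 815 to 1811 in male ISch against IS, the last 2 maxima also without IS replicate 3, from 572 to 1025 (without FIDch replicate 4) in female FIDch against ISch, and from 879 to 1768 (without male IS replicate 3) in female minus male FID. They also ranged from 1295 to 2003 in male FIDch against FID and from 781 to 1634 in male FIDch against ISch. In the females the ranges were 1108 to 1528 in FIDch and 1278 to 2042 in ISch against IS, and 1633 to 2065 in FIDch against FID. The interaction gave 901 to 1330 in the females and 1464 to 2627 in the males, and female minus male ISch gave 1806 to 2617.

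Without female FID replicate 2, the library with Y-linked counts, genes with an adjusted p under 0.05 numbered 10 in place of 28 in FID against IS and 89 in place of 334 in FIDch against FID, where Clk4 was then called, at 0.35. All genes called at the criterion in FIDch against FID then numbered 1633 in place of 1859. Male libraries held fewer counts, which limits small differences there.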

Other observations

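Mitochondrially encoded genes, which are in none of the gene lists named above, differed from IS in the ISch males, whose dams had choline added to an iron-sufficient diet. Of 13 such genes, 9 were called lower and 2 higher in male ISch against IS, beside 3.54% and 4.52% of all genes. Mt-nd2 fell by 0.68 (edgeR adjusted p = 0.000149), Mt-nd1 by 0.56 (0.00177), Mt-co3 by 0.47 (0.000747) and Mt-atp6 by 0.32 (0.0202), while Mt-atp8 rose by 0.40 (0.0109). The effect of ISch differed between females and males for Mt-nd2 (0.55, adjusted p = 0.000867), Mt-co3 (0.46, 0.00305) and Mt-nd1 (0.48, 0.0128). Mt-atp8 also rose in male FIDch against IS (0.47, 0.0197) and FID (0.54, 0.00541), where Mt-nd3 fell by 0.34 (0.047), and Mt-co2 fell by 0.33 in male FIDch against ISch (0.0483). In females, Mt-nd4l fell by 0.36 in FIDch against FID (0.0289, and 0.0828 without female FID replicate 2). The adjusted p of Mt-nd2, Mt-nd1 and Mt-co3 in male ISch against IS stayed under 0.05 in 15 of 15 alternatives. It did so in 9 of 15 for Mt-atp6, which reached 0.292 without the 3 male libraries named in another form, in 11 of 15 for Mt-atp8, in 3 of 14 for Mt-nd3 (up to 0.174), in 5 of 15 for Mt-co2 (up to 0.245) and in 7 of 14 for Mt-nd4l. For Mt-atp8 in FIDch it did so in 8 of 14 against IS and 13 of 14 against FID, and the difference between sexes for Mt-nd1 reached 0.0748 in 1 of 22. Of the 8 nuclear retained RNAs listed, 1, Snhg11, was in the tables.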
